A study of Mus musculus with 56 samples.

Results

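Fibroblast growth factors FGF1 and FGF21 and the receptors that read them were followed over the day in mouse visceral adipose tissue (VAT). The 6 genes, Fgf1, Fgf21, Klb, Fgfr1, Fgfr2 and Fgfr3, were found by matching the Ensembl identifiers of the deposited VAT table to these symbols, and all 6 of them were among its 25939 genes. All 6 passed the filter on low values, a mean of at least 0.1 CPM (counts per 1e6 reads of the effective library size), which left 19747 genes for the tests. The samples came from C57BL/6J female mice, 9 weeks old, without any transgene or drug. For 7 days food was offered either in the light phase (daytime-restricted feeding, DRF) or in the dark phase (nighttime-restricted feeding, NRF, the reference), on a day of 12 h light and 12 h dark. The clock hours of food are not given in the sources used here, and feeding was taken to span the light phase under DRF and the dark phase under NRF. VAT was taken at 7 zeitgeber times (ZT, hours after lights on) from ZT0 to ZT24 in steps of 4 h, from 4 mice at each time and regimen, which gave 56 libraries of polyA RNA. Each mouse gave 1 library, so every time course compares different animals and the p-values measure the spread between mice.

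FGF1 is a paracrine growth factor that binds all FGF receptors with heparan sulfate, and in fat it is known as a target of PPARγ needed for remodelling on a rich diet. FGF21 is an endocrine FGF that liver releases and that adipocytes also make, and it signals only where an FGF receptor, chiefly FGFR1, is paired with the co-receptor β-Klotho, encoded by Klb. The receptors FGFR1, FGFR2 and FGFR3 are tyrosine kinases that act through the adaptor FRS2 on the MAPK cascade, which in turn induces its own inhibitors of the Sprouty, Spred and dual-specificity phosphatase families.

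In the GRCm38 assembly, Fgf21 lies on the minus strand at chr7:45613886-45615490 and Fgfr2 on the minus strand at chr7:130162451-133123350. Klb lies on the plus strand at chr5:65348314-65384007 and Fgfr3 on the plus strand at chr5:33721674-33737068. Fgfr1 lies on the plus strand at chr8:25513654-25575718. Of the bases in Fgfr3 exons, 13.9% also lie in exons of the antisense gene G630022F23Rik, and for Fgfr1 1.66% are shared with the antisense gene Gm16159. Reads from these stretches cannot be assigned to one gene without strand information. For Fgfr2 3.04% are shared with Ctbp2 on the same strand, where strand would not separate them either.

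The sequence before the start site is shown for the members whose levels followed food or differed in mean between the regimens, Fgf21, Fgfr3 and Klb. RefSeq windows of 300 bases (250 before to 50 after a start site, GRCm38.p6) were at hand for 4 of the 6 members, among 32851 windows of all genes. The printed runs stop before the first base of any exon of the gene, run 5′ to 3′ on the gene's strand, and carry each match to a searched motif in capitals.
Fgf21, chr7:45615491-45615740, minus strand: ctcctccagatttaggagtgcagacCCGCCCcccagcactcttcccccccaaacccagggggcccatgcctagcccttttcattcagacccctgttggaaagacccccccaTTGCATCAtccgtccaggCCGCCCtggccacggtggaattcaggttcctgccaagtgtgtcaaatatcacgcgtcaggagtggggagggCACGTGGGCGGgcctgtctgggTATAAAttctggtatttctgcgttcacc
Fgfr3, chr5:33721474-33721673, plus strand: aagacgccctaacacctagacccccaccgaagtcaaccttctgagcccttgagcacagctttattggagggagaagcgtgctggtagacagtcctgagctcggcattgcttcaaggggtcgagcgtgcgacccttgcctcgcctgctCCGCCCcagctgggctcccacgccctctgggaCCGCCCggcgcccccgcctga
Klb, chr5:65348161-65348313, plus strand: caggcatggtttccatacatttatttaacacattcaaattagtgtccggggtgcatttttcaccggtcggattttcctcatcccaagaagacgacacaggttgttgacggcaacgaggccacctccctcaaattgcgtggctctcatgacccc

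Motifs were searched on both strands of the whole windows. The Fgf21 window held an E-box (CACGTG), 50 bases before the start site, a motif found in 7.15% of all windows. It also held the ATF4 element (TGATGNAA) on the opposite strand, 139 bases before the start site, found in 3.97% of windows, and a TATA box (TATAAA) 28 bases before it, found in 13.6%. There were 3 GC boxes (GGGCGG, in 35.7% of windows), one of which shares a base with the E-box. The first Fgfr3 window held 4 GC boxes, of which 2 fall in the printed run, and a second Fgfr3 start site inside the gene had 2 in its window. The Klb window held none of the 6 motifs searched, and the Fgfr2 window held an E-box 29 bases after its start site. The D-box (TTATGNAA, in 3.38% of windows) and the cyclic AMP response element (TGACGTCA, in 1.79%) were in no member's window. A match describes these letters only and shows neither binding nor a cause.

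The deposited values were recovered as whole reads, 31430275 to 41570235 per library, before any comparison (the processing is described with the methods). Adipocyte markers were present in every library, with a summed level of 9297 to 31823 CPM over 6 genes, which fits the labelled tissue. In 2 DRF libraries the summed level of the 8 listed epithelial genes that the table holds was 1405 CPM (ZT0 replicate 4) and 545 CPM (ZT8 replicate 1), against 18.6 to 88.9 CPM in the other 54, and these libraries also set the second principal component (15.7% of the variance). The same 2 libraries had the lowest adipocyte sums, 13825 CPM (ZT0 replicate 4) and 9297 CPM (ZT8 replicate 1), against at least 16616 CPM in the other 54. In 1 NRF library (ZT24 replicate 4) the summed liver markers reached 1539 CPM, against at most 75.2 CPM in the others. Results that depend on these libraries are given with and without them.

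Per kilobase of exon, the members fell into a high and a low group. The median over the 56 libraries was 35.3 CPM per kb for Fgf1, 19.7 for Klb and 15.8 for Fgfr1. It was 1.25 CPM per kb for Fgfr3, 1.16 for Fgfr2 and 0.65 for Fgf21. The ranges over all libraries of Klb (7.06 to 32.4 CPM per kb) and Fgfr1 (9.58 to 22.6) overlapped, as did those of Fgfr3 (0.50 to 2.75) and Fgfr2 (0.58 to 4.94). These genes are read in the same libraries, so the overlap does not show that neighbours in the order are alike. At DRF ZT4 Klb read 24.1 to 32.4 CPM per kb and Fgfr1 13.2 to 16.7. At NRF ZT12 the order was reversed, with 7.06 to 8.56 for Klb and 14.8 to 16.6 for Fgfr1. The order of neighbours was not tested. The highest library of Fgf21 reached 6.26 CPM per kb, above every library of Fgfr2 and Fgfr3, while its lowest held no read. In bulk tissue, fewer cells of a type and less RNA per cell cannot be told apart in any of these levels.

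**Figure D1:**
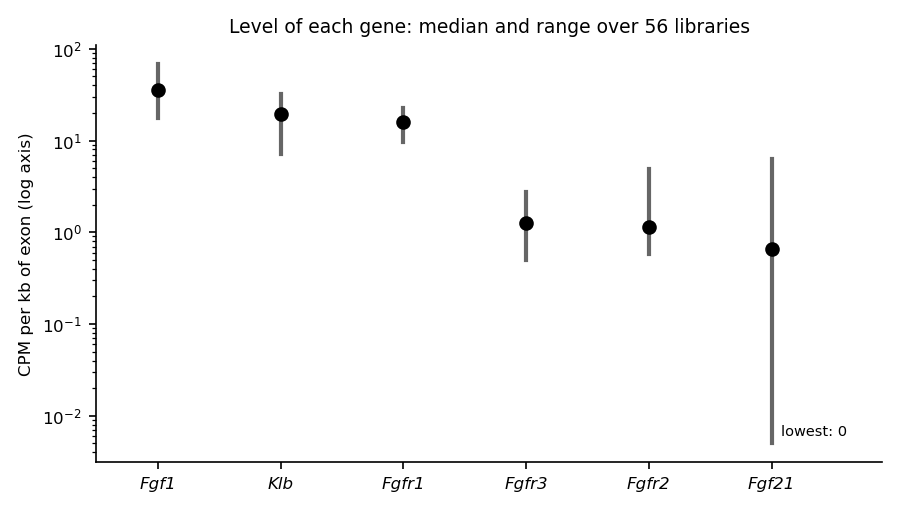
Level of each member as CPM per kilobase of exon (log axis), with the median as a point and the range over 56 libraries as a line; the lowest Fgf21 library held 0 reads and its line is drawn to the bottom of the axis. Fgf1, Klb and Fgfr1 have medians of 15.8 to 35.3 and the other members 0.65 to 1.25.

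The design crosses food with light, so the libraries taken in the middle of feeding (NRF ZT16 and ZT20, DRF ZT4 and ZT8) were compared with those in the middle of fasting (NRF ZT4 and ZT8, DRF ZT16 and ZT20), 16 against 16. Fgf21 and Fgfr3 were higher in feeding, that is 2 of the 6 members, where 16.7% of all genes tested were called higher and 15.8% lower (32.5% in either direction), a share of members near that of all genes. No other member passed the threshold in this contrast in all 56 libraries. Fgf21 was higher by 1.46 (SE 0.17) on the log2(CPM + 1) scale (limma, adjusted p = 2.36e-09) and Fgfr3 by 0.74 (SE 0.10, adjusted p = 8.58e-08). The added 1 CPM understates the change of Fgf21, whose mean under NRF was 2.60 ± 1.82 CPM (SD, n = 8) in feeding and 0.289 ± 0.189 CPM in fasting, a ratio of 9.00. Under DRF its mean was 3.21 ± 1.83 CPM in feeding and 0.257 ± 0.159 CPM in fasting (SD, n = 8), a ratio of 12.5. The same contrast of light (ZT4, ZT8) with dark (ZT16, ZT20) called only Fgfr2 among the members, higher in light, where 8.62% of all genes were called higher and 8.54% lower (17.2% in all). The mean level over the day differed between the regimens only for Klb, which was higher under DRF, where 15.4% of all genes were called higher and 14.3% lower (29.6% in all). Scaled by total reads instead, 2511 genes were called higher and 1064 lower in light (1702 and 1687 as reported), and 2280 higher and 3642 lower under DRF (3036 and 2814), while the calls of Fgfr2 and Klb held under this scaling.

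**Figure D2:**
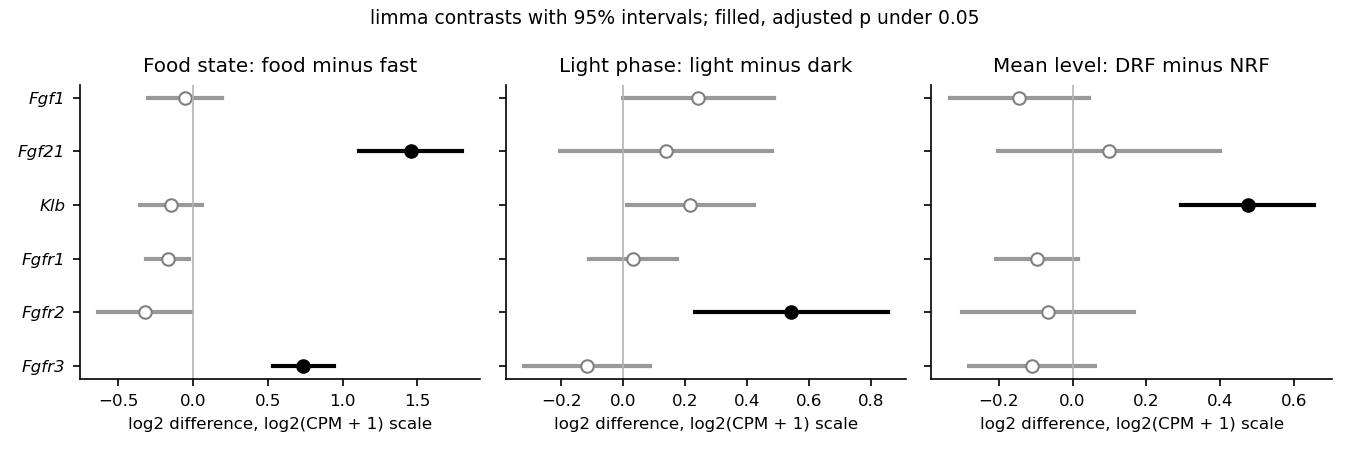
Differences of each member (log2(CPM + 1) scale) between feeding and fasting, light and dark, and DRF and NRF, with 95% intervals from limma over 56 libraries; filled points have an adjusted p under 0.05. Fgf21 and Fgfr3 stand apart in the food contrast, Fgfr2 in the light contrast and Klb in the mean level.

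The rhythms over 24 h were compared as the cosine and sine terms of each regimen (limma, F test). They differed between DRF and NRF for 5 of the 6 members, Fgfr1 being the exception (adjusted p = 0.0960), where 46.6% of all genes differed. A second test asked whether the DRF rhythm differed from the NRF rhythm turned by 12 h. It did for Klb and Fgfr2, 2 of 6 members, where 21.1% of all genes did.

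**Figure D3:**
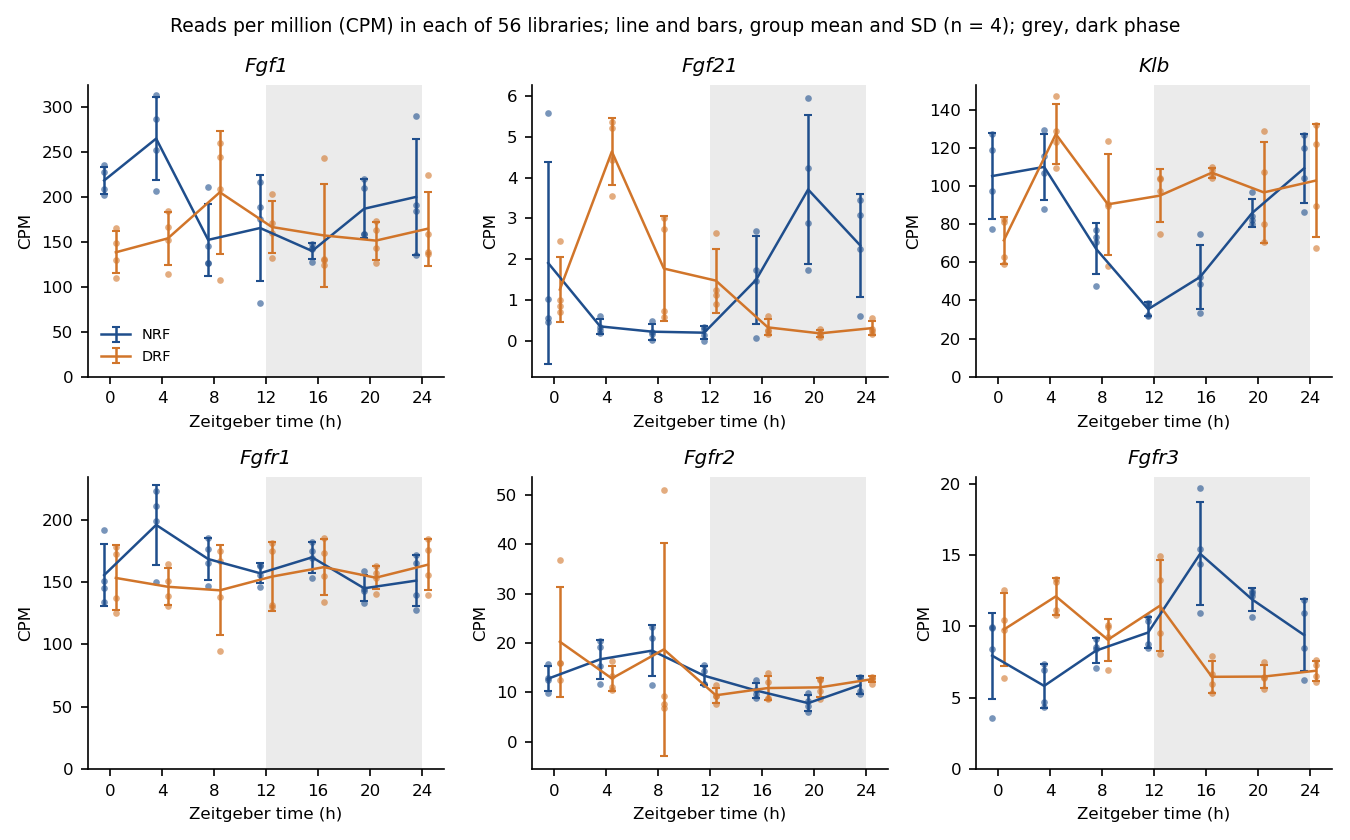
Level in CPM of each member against zeitgeber time, with 1 point per library, lines through the group means and bars of 1 SD (4 mice per group; NRF blue, DRF orange, dark phase grey). Fgf21 and Fgfr3 are high in the light under DRF and in the dark under NRF, while Klb falls to 35.4 CPM at ZT12 under NRF only.

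Fgf21 was the member with the widest range, from 0.183 CPM (mean of DRF ZT20) to 4.64 CPM (DRF ZT4). Under NRF it read 0.467, 1.03, 5.58 and 0.550 CPM at ZT0 (replicates 1 to 4, here and in what follows). At ZT4 it read 0.199, 0.341, 0.620 and 0.256 CPM, and at ZT8 0.163, 0.486, 0.0257 and 0.223 CPM. All 8 libraries of these 2 times in the light were at or below 0.620 CPM.

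At ZT12, the change from light to dark, the NRF libraries read 0.152, 0, 0.349 and 0.298 CPM, and the count of 0 reads allows up to 0.0767 CPM in that library. At ZT16 Fgf21 read 1.74, 1.48, 0.0809 and 2.69 CPM, and at ZT20 2.89, 4.24, 5.96 and 1.74 CPM. At ZT24 it read 0.599, 2.24, 3.08 and 3.45 CPM. The NRF libraries of ZT20 were all above those of ZT4, ZT8 and ZT12, while replicate 3 of ZT16 stayed at the fasting level and replicate 3 of ZT0 stood above the other 3 of its group.

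Under DRF Fgf21 read 0.712, 2.45, 0.864 and 1.00 CPM at ZT0 and 5.36, 4.44, 5.21 and 3.55 CPM at ZT4, so that all 4 libraries of ZT4 lay above all 4 of ZT0. At ZT8 it read 0.742, 0.591, 2.73 and 3.02 CPM, and at ZT12 2.63, 0.898, 1.13 and 1.25 CPM. In the dark it read 0.174, 0.277, 0.252 and 0.617 CPM at ZT16 and 0.105, 0.183, 0.294 and 0.152 CPM at ZT20. At ZT24, lights on as at ZT0, it read 0.562, 0.157, 0.244 and 0.282 CPM. No library of ZT16, ZT20 or ZT24 under DRF reached the ZT4 level, and the highest at ZT16 just exceeded the lowest at ZT8.

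Fgf21 was rhythmic under both regimens by the combined JTK_CYCLE and Lomb-Scargle test (adjusted p = 0.000257 under NRF and 0.000844 under DRF). It was 1 of 4 members called under NRF, with Klb, Fgfr2 and Fgfr3, where 32.9% of all genes were called, and the only member called under DRF, where 17.9% were. The DRF call was lost when replicate 3 or 4 was left out of every group (adjusted p = 0.0655 and 0.0612). The fitted peak was at 20.4 h (SE 0.64) with an amplitude of 0.94 (SE 0.16, log2 scale) under NRF, and at 6.33 h (SE 0.58) with an amplitude of 0.92 (SE 0.16) under DRF. The peaks were 9.91 h apart (SE 0.86), and the DRF amplitude was 98.0% of that under NRF. The rhythms differed between the regimens (adjusted p = 7.79e-09), and the test against a 12-h turn did not pass the threshold (adjusted p = 0.146), which does not show that the turn was exact.

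At single times, Fgf21 was higher under DRF at ZT4 by 2.06 (SE 0.34, adjusted p = 1.53e-05), where 27.2% of all genes differed. It was also higher at ZT8 by 1.07 (adjusted p = 0.0189, 22.6% of all genes) and at ZT12 by 1.01 (adjusted p = 0.0275, 22.0% of all genes). It was lower under DRF at ZT20 by 1.91 (adjusted p = 5.13e-05, 18.5% of all genes) and at ZT24 by 1.26 (adjusted p = 0.00822, 16.2% of all genes), on the log2(CPM + 1) scale. At ZT0 the difference was -0.12 (adjusted p = 0.868, 14.7% of all genes) and at ZT16 -0.79 (adjusted p = 0.117). ZT0 and ZT24 are the same time of day, both enter the cosine fits, and their results for Fgf21 were unlike. Under DRF Fgf21 ran from 0.712 to 2.45 CPM at ZT0 and from 0.157 to 0.562 CPM at ZT24, without overlap. Under NRF these groups overlapped (0.467 to 5.58 and 0.599 to 3.45 CPM). The reason was not tested. The ZT8 call was lost without DRF ZT8 replicate 3 or 4 (adjusted p = 0.0823 and 0.0974), and the ZT12 call without DRF ZT12 replicate 1 or NRF ZT12 replicate 1 or 2 (adjusted p = 0.127, 0.0609 and 0.0809). Of the 13 settings described with the methods, 10 kept the ZT8 call (highest adjusted p = 0.157) and 9 the ZT12 call (highest adjusted p = 0.191). The ZT24 call of Fgf21 was lost when replicate 2 or replicate 4 was left out of every group (adjusted p = 0.0991 and 0.0871). Replicate 4 of NRF ZT24 is the library with 1539 CPM of liver markers, against at most 75.2 CPM in the others. It had the highest Fgf21 of its group, 3.45 CPM against 0.599 to 3.08 CPM. With any single library of the 56 left out, that one included, the ZT24 call held (-1.58 to -1.09, highest adjusted p = 0.0443). At ZT12 the summed liver markers were higher under DRF, as Fgf21 was (25.1 to 41.5 against 13.6 to 22.0 CPM), and so was the pancreas sum (21.3 to 32.9 against 7.75 to 12.1 CPM). The pancreas sum was also higher under DRF at ZT8 (12.6 to 34.1 against 7.44 to 11.2 CPM). At ZT20, where Fgf21 was lower under DRF, the liver sum was 24.97 to 42.0 CPM under DRF and 16.4 to 39.9 CPM under NRF. Their part in the Fgf21 calls was not tested.

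**Figure D4:**
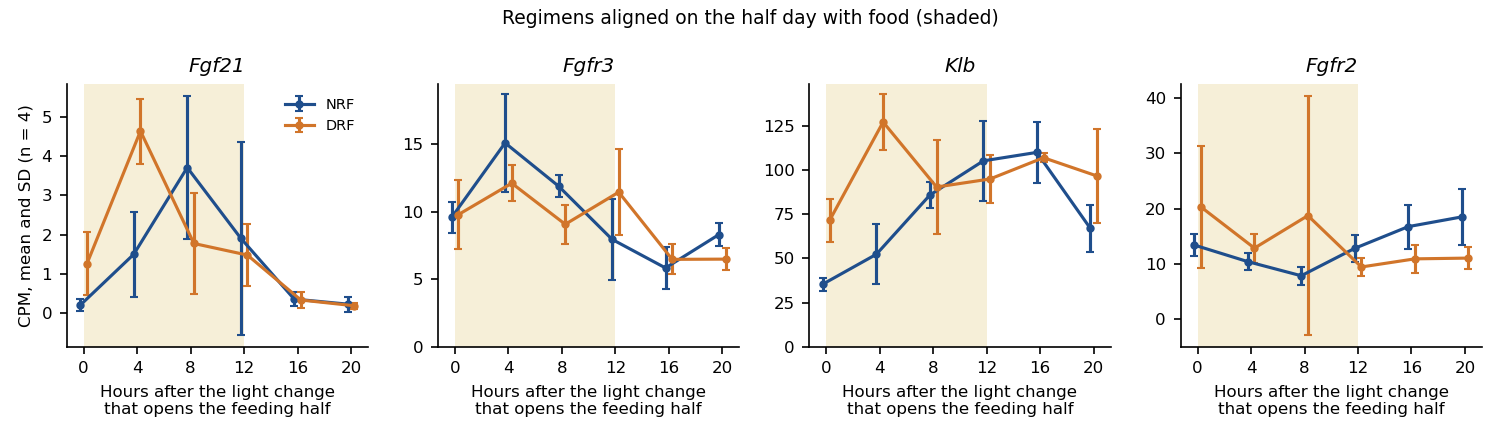
Group means with bars of 1 SD (n = 4, CPM) against hours after the light change that opens the part of the day in which food was offered (shaded), so that DRF ZT0 stands over NRF ZT12; ZT24 is left out. Fgf21 and Fgfr3 are high within the shaded part under both regimens, and Klb starts at 71.5 CPM under DRF (ZT0) and 35.4 CPM under NRF (ZT12). The starting level under DRF depends on the group shown. At DRF ZT24, the same time of day as ZT0, the mean was 103 CPM for Klb. It was 0.311 CPM for Fgf21 (1.26 at ZT0) and 6.89 CPM for Fgfr3 (9.77 at ZT0).

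Aligned on the part of the day with food, Fgf21 was at 4.64 ± 0.828 CPM under DRF and 1.5 ± 1.08 CPM under NRF 4 h after the light change that opens it (SD, n = 4). After 8 h the order was the other way round, with 1.77 ± 1.28 CPM under DRF and 3.71 ± 1.81 CPM under NRF. The libraries of the regimens did not overlap at 4 h and overlapped at 8 h, and no test was run on these aligned pairs.

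Klb, the co-receptor that FGF21 needs, had a deep trough under NRF that was not seen under DRF. Under NRF it read 77.3, 97.3, 119 and 127 CPM at ZT0, 129, 116, 107 and 88.1 CPM at ZT4, and 73.4, 47.4, 70.6 and 76.7 CPM at ZT8. It then read 32.1, 32.3, 38.3 and 38.9 CPM at ZT12 and 33.4, 48.9, 52.4 and 74.6 CPM at ZT16. It read 80.1, 82.4, 96.8 and 84.0 CPM at ZT20 and 127, 104, 120 and 86.4 CPM at ZT24. All 4 libraries of ZT12 were below those of every other time except ZT16.

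Under DRF Klb read 82.6, 59.1, 81.3 and 62.9 CPM at ZT0, 110, 129, 123 and 147 CPM at ZT4 and 58.1, 90.7, 89.4 and 123 CPM at ZT8. At ZT12 it read 97.2, 74.8, 103 and 104 CPM, and at ZT16 104, 106, 108 and 110 CPM. At ZT20 it read 79.9, 129, 107 and 70.6 CPM, and at ZT24 132, 89.7, 67.7 and 122 CPM. No DRF library was as low as the 4 NRF libraries of ZT12, and the ZT0 group lay wholly below the ZT4 group.

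The mean level of Klb was higher under DRF by 0.47 (SE 0.09, 95% interval 0.30 to 0.65, limma adjusted p = 4.96e-05). At ZT12 DRF and NRF differed by 1.39 (SE 0.20, adjusted p = 1.74e-06) and at ZT16 by 1.07 (SE 0.20, adjusted p = 0.000248, where 7.05% of all genes were higher), and the groups did not overlap at either time. At the other times no difference of Klb passed the threshold in all 56 libraries, the nearest being -0.54 at ZT0 (adjusted p = 0.0651). Klb was also higher under DRF at ZT8 without the 2 libraries high in epithelial markers, by 0.59 (adjusted p = 0.0293). Of these 2, ZT8 replicate 1 had the lowest adipocyte sum of all libraries (9297 CPM), and its part in this Klb call was not tested. Klb was rhythmic under NRF (adjusted p = 3.72e-06, peak at 1.08 h, SE 0.43, amplitude 0.76, SE 0.08). Under DRF it was not called (adjusted p = 1), and the fitted amplitude of 0.06 (SE 0.10) was 8.06% of that under NRF. The rhythms differed between the regimens (adjusted p = 9.17e-07) and the DRF rhythm differed from a 12-h turn of the NRF one (adjusted p = 5.15e-05).

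The summed adipocyte markers ran from 16655 to 27432 CPM under NRF and from 9297 to 31823 CPM under DRF, with medians of 21177 and 24247 CPM. The summed stromal cell markers had medians of 3656 CPM under NRF and 2881 CPM under DRF. Medians were also lower under DRF for mesothelium (370 against 481 CPM) and macrophages (751 against 865 CPM) and higher for pancreas (22.1 against 12.1 CPM), liver (35.8 against 24.5 CPM) and endothelium (861 against 781 CPM), with ranges that overlapped in every list. At ZT12, where Klb differed most, the adipocyte sum was lower under DRF, 16616 to 19283 CPM against 20067 to 25712 CPM under NRF. The endothelial sum was higher under DRF, 734 to 795 CPM against 667 to 696 CPM, as were the liver and pancreas sums given with Fgf21, while the other 6 lists overlapped at this time. The part of cell composition in the Klb difference was not tested.

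Fgf1, on the minus strand at chr18:38838673-38929472 (GRCm38) and the most abundant member per kilobase, followed neither food nor light at the threshold in all 56 libraries. The food contrast was -0.05 (95% interval -0.30 to 0.19, adjusted p = 0.796) and the light contrast 0.24 (95% interval -0.0023 to 0.49, adjusted p = 0.169). Group means ran from 138 CPM (DRF ZT0) to 265 CPM (NRF ZT4), a ratio of 1.91. Its largest difference at one time was at ZT4, where NRF read 207, 313, 252 and 287 CPM and DRF 114, 166, 152 and 184 CPM. The groups did not overlap, and Fgf1 was lower under DRF by 0.78 (SE 0.24, adjusted p = 0.0134). Without DRF ZT4 replicate 1 the adjusted p was 0.0620. Of the 13 settings described with the methods, 11 kept this call (highest adjusted p = 0.0690). The summed mesothelial markers also separated the regimens at ZT4 (442 to 671 CPM under NRF and 275 to 430 CPM under DRF), and so did the stromal sum (3781 to 5595 and 2732 to 3111 CPM). Their part in the Fgf1 difference was not tested.

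At ZT0 Fgf1 read 227, 235, 202 and 209 CPM under NRF and 110, 165, 148 and 130 CPM under DRF. These groups did not overlap either, but the difference of -0.67 missed the threshold (adjusted p = 0.0558). The rhythms of Fgf1 differed between the regimens (adjusted p = 0.0162, and 0.0699 without replicate 1 of every group), with a fitted amplitude of 0.35 (SE 0.10) and a peak at 1.95 h (SE 1.12) under NRF and an amplitude of 0.15 (SE 0.09) under DRF. Within a regimen the rhythm test called neither (adjusted p = 0.194 under NRF and 1 under DRF). The limma test of the cosine terms called the NRF rhythm (adjusted p = 0.00484), where it called 44.6% of all genes, and so did the first test without the NRF library high in liver markers (adjusted p = 0.0453). Without DRF ZT8 replicate 1 the food contrast of Fgf1 turned to 0.02 and its light contrast passed the threshold (0.31, adjusted p = 0.0475), as it did without replicate 1 of every group (0.33, adjusted p = 0.0440). Without the 2 libraries high in epithelial markers, this one among them, Fgf1 was higher under DRF at ZT8 by 0.67 (adjusted p = 0.0348). In that library of DRF ZT8 Fgf1 read 108 CPM, against 209 to 260 CPM in the other 3 of its group. Its adipocyte sum was 9297 CPM, against 18942 to 24850 CPM in the other 3. The part of the adipocyte markers in these Fgf1 results was not tested.

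Fgfr1, the main partner of β-Klotho in adipocytes, was the steadiest member. Its group means ran from 143 CPM (DRF ZT8) to 196 CPM (NRF ZT4), a ratio of 1.37. The range over all NRF libraries was 128 to 223 CPM and over all DRF libraries 94.6 to 186 CPM. The food contrast was -0.17 (95% interval -0.31 to -0.03, adjusted p = 0.0613), close to the threshold and past it when any one of 6 single libraries was left out (lowest adjusted p = 0.0223). Neither rhythm test called it in either regimen (fitted amplitudes of 0.12, SE 0.05, and 0.08, SE 0.06). The only time at which it differed was ZT4, with 199, 150, 223 and 211 CPM under NRF and 139, 165, 131 and 151 CPM under DRF. The groups overlapped through NRF replicate 2, the difference was -0.41 (SE 0.14, adjusted p = 0.0272), and the call was lost when any one of 5 libraries was left out (highest adjusted p = 0.105). Of the 13 settings described with the methods, 10 kept it (highest adjusted p = 0.224). The stromal and mesothelial sums that separated the regimens at ZT4, given with Fgf1, were higher under NRF as Fgfr1 was, and their part was not tested.

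Fgfr2, a receptor whose IIIb form is typical of epithelia, was read differently in the 2 libraries high in epithelial markers. It stood at 36.8 CPM in DRF ZT0 replicate 4 and at 51.0 CPM in DRF ZT8 replicate 1, against at most 23.3 CPM in the other 54 libraries. The other libraries of those groups read 12.4, 16.05 and 15.9 CPM at ZT0 and 6.94, 7.57 and 9.36 CPM at ZT8. In the remaining DRF groups it read 13.4, 16.3, 10.5 and 11.2 CPM at ZT4, 7.71, 9.19, 11.5 and 9.35 CPM at ZT12 and 8.67, 12.1, 13.9 and 8.96 CPM at ZT16.

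At DRF ZT20 it read 12.7, 12.5, 8.62 and 10.3 CPM and at ZT24 13.2, 11.8, 12.7 and 13.0 CPM. Outside the 2 libraries, the DRF values kept between 6.94 and 16.3 CPM. Whether other cells in these samples raised Fgfr2 was not tested.

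**Figure D5:**
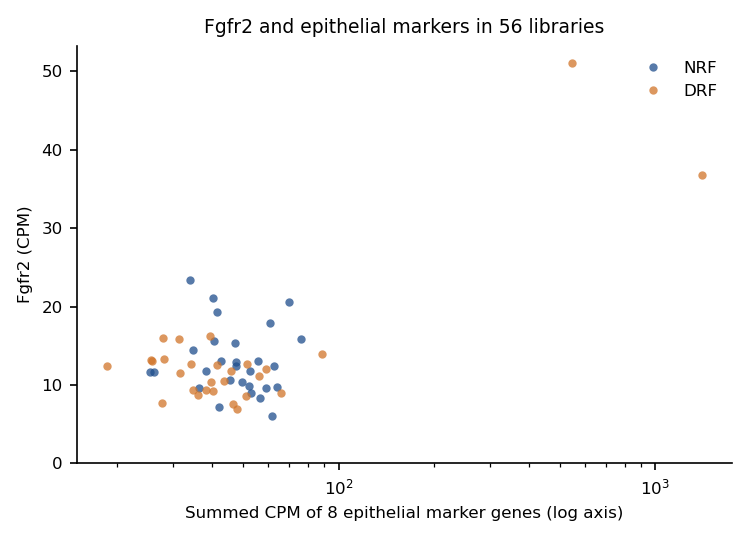
Fgfr2 (CPM) in each of 56 libraries against the summed CPM of 8 epithelial marker genes (log axis; NRF blue, DRF orange). Of the DRF libraries, 2 lie apart at 545 and 1405 CPM of the markers and 51.0 and 36.8 CPM of Fgfr2.

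Under NRF Fgfr2 read 15.9, 12.5, 9.83 and 13.0 CPM at ZT0, 15.3, 11.8, 20.5 and 19.3 CPM at ZT4 and 23.3, 17.9, 11.6 and 21.1 CPM at ZT8. It read 14.4, 15.6, 11.7 and 11.8 CPM at ZT12, 8.95, 12.4, 9.63 and 10.6 CPM at ZT16 and 7.20, 9.80, 6.01 and 8.36 CPM at ZT20. It read 13.0, 10.3, 13.1 and 9.65 CPM at ZT24. Every library of ZT20 lay below every library of ZT4 and ZT8, and the epithelial sum of the NRF libraries stayed between 25.5 and 76.2 CPM. The stromal sum ran from 3125 to 5595 CPM at NRF ZT4 and ZT8 and from 2929 to 4116 CPM at ZT16 and ZT20. At ZT8 it was 3125 CPM in replicate 3, where Fgfr2 was lowest, and 4603 to 5347 CPM in the other 3 libraries. The part of the stromal markers in the NRF rhythm of Fgfr2 was not tested.

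Fgfr2 was rhythmic under NRF (adjusted p = 0.000192, peak at 6.84 h, SE 0.52, amplitude 0.51, SE 0.08) and not called under DRF (adjusted p = 0.469). With all libraries it was higher in light than in dark by 0.54 (SE 0.15, adjusted p = 0.0114), and the food contrast of -0.32 missed the threshold (adjusted p = 0.109). The light call was lost when replicate 1 or 4 was left out of every group (0.33 and 0.54, adjusted p = 0.0727 and 0.0622). Without the 2 libraries, a choice made after seeing the data, it was lower in feeding by 0.48 (adjusted p = 2.31e-05) and lower in mean level under DRF by 0.20 (adjusted p = 0.0190). Under NRF the mean was 9.12 ± 1.99 CPM in feeding and 17.6 ± 4.34 CPM in fasting (SD, n = 8). Under DRF, without the library of ZT8, it was 10.7 ± 3.27 CPM in feeding (n = 7) and 10.97 ± 2.08 CPM in fasting (n = 8). In this crossed design the light contrast is also the test of whether the food difference differs between the regimens, and without the 2 libraries it was 0.38 (adjusted p = 0.00172).

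The rhythms of Fgfr2 differed between the regimens (adjusted p = 0.0239) and from a 12-h turn (adjusted p = 0.0171). The first call was lost without DRF ZT8 replicate 2 (adjusted p = 0.0555) or replicate 3 (adjusted p = 0.0521), and when replicate 2, 3 or 4 was left out of every group (adjusted p = 0.167, 0.0789 and 0.212). The second was lost without replicate 1 or 4 of every group (adjusted p = 0.0991 and 0.0754). The adjusted p of the first was 1.53e-06 without the 2 libraries high in epithelial markers, and without replicate 1 of every group it was 0.000916. Without the 2 libraries the fitted DRF rhythm had an amplitude of 0.27 (SE 0.07) and a peak at 23.4 h (SE 1.03), against 0.28 (SE 0.15) and 1.79 h (SE 2.16) with them. With all libraries no single time gave a difference of Fgfr2 past the threshold (at ZT8 -0.45, adjusted p = 0.317). Without the 2 libraries the ZT8 groups did not overlap and Fgfr2 was lower under DRF by 1.09 (adjusted p = 3.66e-05), and at ZT12 by 0.47 (adjusted p = 0.0423).

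Fgfr3, the receptor best known for restraining bone growth, followed food at a level of 3.56 to 19.7 CPM. Under NRF it read 3.56, 9.90, 9.93 and 8.38 CPM at ZT0, 6.91, 4.33, 7.36 and 4.71 CPM at ZT4 and 8.58, 9.11, 7.10 and 8.41 CPM at ZT8. It read 10.4, 8.46, 8.75 and 10.7 CPM at ZT12, 19.7, 15.4, 10.9 and 14.3 CPM at ZT16 and 12.1, 12.4, 10.7 and 12.3 CPM at ZT20. It read 6.27, 11.8, 8.48 and 10.96 CPM at ZT24. The 8 feeding libraries (10.7 to 19.7 CPM) did not overlap the 8 fasting ones (4.33 to 9.11 CPM), and their means of 13.5 ± 2.96 and 7.06 ± 1.75 CPM gave a ratio of 1.91.

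Under DRF Fgfr3 read 9.74, 10.4, 6.41 and 12.5 CPM at ZT0, 13.1, 11.1, 13.3 and 10.8 CPM at ZT4 and 10.1, 6.94, 9.95 and 9.25 CPM at ZT8. It read 15.0, 8.08, 13.2 and 9.50 CPM at ZT12, 7.92, 5.32, 6.65 and 5.96 CPM at ZT16 and 7.52, 6.43, 6.35 and 5.61 CPM at ZT20. It read 7.30, 7.61, 6.09 and 6.54 CPM at ZT24. Feeding and fasting overlapped only through ZT8 replicate 2 (6.94 CPM) and the highest fasting libraries, with means of 10.6 ± 2.07 and 6.47 ± 0.892 CPM (SD, n = 8) and a ratio of 1.63.

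The peak of Fgfr3 was fitted at 16.6 h (SE 0.62, amplitude 0.53, SE 0.09) under NRF and at 6.78 h (SE 0.83, amplitude 0.37, SE 0.09) under DRF, 9.87 h apart (SE 1.04). The rhythm was called under NRF (adjusted p = 4.04e-05) and just missed under DRF (adjusted p = 0.0562), where the limma test of the cosine terms called it (adjusted p = 0.00418) along with 35.9% of all genes. The rhythms differed between the regimens (adjusted p = 7.79e-07), and the test against a 12-h turn gave an adjusted p of 0.148. Fgfr3 was higher under DRF at ZT4 by 0.96 (SE 0.20, adjusted p = 0.000361). It was lower under DRF at ZT16 by 1.09 (adjusted p = 0.000183, where 6.99% of all genes were lower) and at ZT20 by 0.79 (adjusted p = 0.00388), a call of Fgfr3 that was lost when replicate 4 was left out of every group (adjusted p = 0.0655).

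The genes whose pattern was most like each member were found by the Pearson correlation of log2(CPM + 1) over the 14 group medians, among 13063 genes with a mean of at least 1 CPM. The medians share libraries and depth, so the values describe likeness only. For Fgf21 they were Dusp4 (r = 0.98), Spry4 (0.95) and Rab3a (0.95), and for Fgfr3 Fbrs (0.96), Rrp1b (0.93) and Plekhh3 (0.92). For Klb they were Txndc15, Clpx and Hist1h1c (each 0.91), for Fgfr2 Tmigd1 (0.93), Kcnma1 (0.93) and Peg3 (0.92). For Fgf1 they were Cfdp1 (0.87), Adamts19 (0.86) and Ildr2 (0.85), and for Fgfr1 Cnnm3 (0.83), Frmd5 (0.83) and Oat (0.82). Between members the closest pair with Fgf21 was Fgfr3, with r = 0.73.

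Among the 20 other FGF ligands listed, 10 were measured above the filter, of which 2 rose and 3 fell in feeding, with a median of -0.12 against -0.003 over all genes, of which 16.7% were called higher and 15.8% lower. Fgf7, a ligand of the FGFR2 IIIb form, rose by 0.41 (adjusted p = 0.00149), and Fgf18, named after its values were seen, by 0.25 (adjusted p = 0.0228). Fgf2 (-0.41, adjusted p = 0.00330), Fgf10, a factor for fat precursors (-0.39, adjusted p = 0.000554) and Fgf14, which acts inside cells on sodium channels (-0.36, adjusted p = 0.000771), fell. The difference of Fgf14 was -0.62 under NRF and -0.10 under DRF, and these differed (light contrast, adjusted p = 0.0321). The light contrast passed the threshold for none of the other 4.

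Of the other receptors, Fgfrl1, a receptor without the kinase, and the Klotho relative Lctl were tested, and neither passed the threshold for food (adjusted p = 0.0860 and 0.955). Both were higher in mean level under DRF, Fgfrl1 by 0.19 (adjusted p = 0.0274) and Lctl by 0.93 (adjusted p = 1.52e-08), where 15.4% of all genes were called higher, and were named after their values were seen. Fgfr4 was under the filter at a mean of 0.0581 CPM. Of the 10 FGF-binding and heparan sulfate partners tested, 2 rose and 1 fell, with a median of 0.16, a share near the 16.7% and 15.8% of all genes. The adhesion protein Flrt3 rose by 0.38 (adjusted p = 0.00118) and the glypican Gpc4 by 0.24 (adjusted p = 0.0123), while Flrt2 fell by 0.27 (adjusted p = 0.0228).

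Of 16 receptor adaptors and proximal kinases, 9 rose and 1 fell in feeding, with a median of 0.16, against 16.7% and 15.8% of all genes. The adaptor Shc1 rose by 0.17 over both regimens (adjusted p = 6.51e-06). Its difference was 0.03 under NRF and 0.31 under DRF, and these differed (light contrast 0.14, adjusted p = 0.000635). The docking protein gene Gab1, also among the 9 and named after its values were seen, had 0.31 under NRF and 0.00097 under DRF (light contrast, adjusted p = 0.0160). The adaptor Frs3 fell by 0.52 (adjusted p = 3.31e-08).

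Of 13 feedback inhibitors of the pathway, 9 rose and none fell in feeding (limma, adjusted p), with a median of 0.22, against 16.7% and 15.8% of all genes. Spry3 rose by 1.78 (SE 0.16, adjusted p = 2.95e-12) from 1.27 to 7.88 CPM, and Spry4 by 1.53 (SE 0.15, adjusted p = 6.51e-11) from 13.6 to 45.0 CPM. Spred1 rose by 0.59 (adjusted p = 1.64e-12) and Spred2 by 0.55 (adjusted p = 1.46e-10). Spry3 was also higher in mean level under DRF by 1.10 (adjusted p = 5.26e-07). Spry1, among the 9 and named after its values were seen, had a difference of 0.43 under NRF and -0.08 under DRF, and these differed (light contrast, adjusted p = 0.00428).

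Of 11 immediate and ETS target genes, 4 rose and none fell, with a median of 0.16, against 16.7% and 15.8% of all genes. Etv5, an ETS factor induced by FGF signals, rose by 0.59 (adjusted p = 4.57e-09), Ier3 by 0.64 (adjusted p = 0.02005), Ier2 by 0.28 (adjusted p = 0.0143) and Etv1 by 0.20 (adjusted p = 0.00516). The difference of Ier2 was -0.05 under NRF and 0.62 under DRF, and these differed (light contrast 0.34, adjusted p = 0.00811).

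Of 10 transcription factors known to act on Fgf1 or Fgf21, 4 rose and 3 fell, with a median of 0.15, against 16.7% and 15.8% of all genes. Atf4, the stress factor that induces Fgf21 when amino acids are short, rose by 0.90 (adjusted p = 2.28e-11) from 78.8 to 150 CPM. Ppara, the fasting receptor that induces Fgf21 in liver, fell by 0.92 (adjusted p = 3.52e-10) from 8.33 to 3.90 CPM. The clock repressor Nr1d1 had a food contrast of -2.20 (adjusted p = 1.34e-19) and a light contrast of 2.13 (adjusted p = 1.14e-18), so its food difference was not the same in the regimens. Under NRF Nr1d1 stood at 9.68 ± 5.72 CPM in feeding and 196 ± 66.8 CPM in fasting (SD, n = 8), a difference of -4.33. Under DRF it stood at 58.0 ± 18.1 and 61.6 ± 21.4 CPM, a difference of -0.08. Rora, an activator that shares its sites, fell by 0.38 over both regimens (adjusted p = 2.53e-06), with -0.20 under NRF and -0.55 under DRF (light contrast, adjusted p = 0.0413). Mlxipl, which encodes the sugar-responsive factor ChREBP, is among the 4 that rose and was named after its values were seen. Its difference was 1.88 under NRF and 0.02 under DRF (light contrast, adjusted p = 0.000813).

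Of 9 adipocyte outputs of FGF1 or FGF21, 1 rose and 3 fell, with a median of -0.21, against 16.7% and 15.8% of all genes. The glucose transporter gene Slc2a4 rose by 0.66 over both regimens (adjusted p = 0.000978), with a light contrast of -0.72 (adjusted p = 0.00112). Under NRF Slc2a4 stood at 583 ± 99.0 CPM in feeding and 241 ± 111 CPM in fasting (SD, n = 8), a difference of 1.38. Under DRF it stood at 482 ± 120 and 505 ± 135 CPM, a difference of -0.07. The lipase gene Lipe fell by 0.68 (adjusted p = 1.33e-07), the phosphodiesterase gene Pde3b by 0.76 (adjusted p = 3.55e-09) and Ucp1 by 1.12 (SE 0.42, adjusted p = 0.0355).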

How the data were processed

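RNA-seq libraries of polyA RNA from VAT (NEBNext Ultra kit, which does not mark strand) were, per the submitters' processing notes, aligned with HISAT2 2.0.5 and counted with featureCounts 1.5.0-p3 on the mm10 genome. The deposited values, named TPM by the authors, proved to be a score: log2(CPM + 1) divided by exon length and rescaled to a column total of 980571 to 997286. Dividing out the length and scale returned whole reads for 100.0000% of 1261920 values under 10000 reads (tolerance 0.02 reads). Lengths came from GENCODE M21 for 25044 genes and from the values for 876, Fgf1 among them, while 17 genes were too abundant to test and 2 were unresolved. Effective library sizes were 31.8 to 47.3 when divided by 1e6. The design had assumed TPM, and the tests were run on the recovered log2(CPM + 1), with a pseudocount of 1.

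Of 25939 genes, 19747 with a mean of at least 0.1 CPM were tested in limma 3.58.1 (R 4.3.3, intensity trend, Benjamini-Hochberg, threshold 0.05). A 24-h cosine model gave mean levels, rhythm differences and the 12-h turn, and a model of 14 group means gave food, light and single-time contrasts. Rhythm within a regimen was tested on the deposited score by a re-coded MetaCycle scheme, in which JTK_CYCLE and Lomb-Scargle p-values at 24 h enter a Fisher sum (Python 3.11.15). Amplitudes and peaks came from least squares, with standard errors by the delta method. Peaks of genes not called are poorly set.

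The members and gene lists were chosen with earlier results of these data known. Named were the 6 members, up to 4 genes per list with the smallest adjusted p for food under 0.05, and the 3 genes most like each member (mean of at least 1 CPM, no Gm or Rik symbol). Some genes that the rule names are not reported here. On simulated data with 200 changed genes of 19747, the food contrast recovered 200 at a log2 change of 1 and called 20 others, and the rhythm difference recovered 163 at an amplitude of 0.7 and called 14 others. The counts for these limma tests were drawn with the same dispersion setting for every gene and no library high in epithelial or liver markers. Recovery for genes with a wider spread between mice was not tested. The rhythm test recovered 199 of 200 among 3000 genes and called 5 others. Alternatives covered scaling, pseudocount, filter, test, ZT24, a replicate block and left-out libraries. Replicate numbers do not mark shared mice. No pair of libraries within a group agreed within sampling noise (lowest reduced chi-square 14.5).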

Additional observations from a re-analysis of the deposited data

Results flagged for a closer look

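Of the 84 groups of 4 libraries tested for a library far from the other 3 (Dixon's test, which flags about 1 group in 20 by chance), 5 had one, each the highest of its group. Fgf1 read 243 CPM in DRF ZT16 replicate 4, against 125 to 131 CPM in the others, and the summed mesothelial markers were 581 CPM in that library and 344 to 357 CPM in the others. The macrophage (866 against 610 to 665 CPM), stromal (3018 against 2444 to 2754 CPM), lymphocyte, liver and pancreas sums were also highest in that library. Those of adipocytes, endothelium, epithelium and muscle were not. Their part in the Fgf1 value was not tested. Fgf21 read 5.58 CPM in NRF ZT0 replicate 3, against 0.467 to 1.03 CPM, and 2.45 CPM in DRF ZT0 replicate 2, against 0.712 to 1.00 CPM. Fgfr2 read 36.8 CPM in DRF ZT0 replicate 4, against 12.4 to 16.05 CPM, and 51.0 CPM in DRF ZT8 replicate 1, against 6.94 to 9.36 CPM. The last 2 are the libraries high in epithelial markers.

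The 24-h rhythm differed between DRF and NRF, by a test of the difference itself (limma, adjusted p), for Fgf1 (0.0162), Fgf21 (7.79e-09), Klb (9.17e-07), Fgfr2 (0.0239) and Fgfr3 (7.79e-07), where 46.6% of all genes differed. The call was lost without replicate 1 of every group for Fgf1 (0.0699) and without replicate 2, 3 or 4 for Fgfr2 (0.167, 0.0789 and 0.212). For Fgfr2 it was 1.53e-06 without the 2 libraries high in epithelial markers and 0.000916 without replicate 1.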

How the results depend on the processing

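The food calls of Fgf21 and Fgfr3, the mean-level call of Klb and the rhythm differences of Fgf21, Klb and Fgfr3 kept their direction and side of the threshold under every setting tried (13 or 14 per result, and 56 single libraries left out). Fgf21 is set by few reads (median 24.5 per library), which limits its precision at low levels. The size of its differences moved widely over the alternatives, while these calls held. It ran from 0.549 to 2.33 for food, from 0.845 to 3.05 at ZT4 and from -3.09 to -0.725 at ZT20. The settings that leave out the 2 or 3 libraries high in epithelial or liver markers, or single libraries, were added after seeing the data. Without the 2 libraries Fgfr2 passed the threshold in mean level (-0.2025, and -0.2097 without 3) and food (-0.4824 in both), Fgf1 reversed in food (0.0173 in both) and passed for light (0.313 in both), and Fgfr3 passed for the DRF rhythm (adjusted p 0.0395 in both). Without the 3 libraries Fgf1 also passed for the 12-h turn (adjusted p 0.04041) and the NRF rhythm (0.04531), and Klb for light (0.2639). Scaled by total reads, Fgfr1 passed in rhythm difference (adjusted p 0.04952) and food (-0.2116), Klb passed for light (0.2606), and over all genes 1064 were lower in light instead of 1687. At ZT4 this scaling called 1516 genes higher and 4489 lower under DRF, instead of 2834 and 2542. The limma cosine test passed Fgf1 under NRF (adjusted p 0.004837) and Fgfr3 under DRF (0.004175), and called 7089 genes under DRF instead of 3526. On log2(CPM + 1) Fgfr3 passed under DRF (0.03829).

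Leaving out a replicate number or a single library gave the following ranges. For food, Fgf1 ran from -0.08814 to 0.0173 (0.0173 without DRF ZT8 replicate 1 and 0.003844 without DRF ZT16 replicate 4), Klb from -0.2897 (without replicate 4, past the threshold at an adjusted p of 0.0402) to -0.01567, Fgfr1 from -0.2254 to -0.1035 and Fgfr2 from -0.4824 to -0.2308. For light, Fgf1 ran from 0.123 to 0.3274, Fgfr1 from -0.00377 (without replicate 3) to 0.09391 and Fgfr2 from 0.3258 to 0.6929, with its call lost without replicate 1 or 4. The adjusted p of the rhythm difference ran from 0.00596 to 0.06987 for Fgf1, 0.04123 to 0.5036 for Fgfr1 and 1.703e-05 to 0.2119 for Fgfr2. That of the 12-h turn ran from 0.006402 to 0.09914 for Fgfr2. That of the rhythm within a regimen ran from 0.04531 to 1 for Fgf1 under NRF, 0.0002561 to 0.06549 for Fgf21 under DRF (lost without replicate 3 or 4) and 0.0148 to 0.6553 for Fgfr3 under DRF. Counts called over all genes ran from 1854 to 3344 (lower mean level under DRF), 1595 to 5141 (12-h turn), 623 to 1926 and 611 to 1927 (higher and lower in light), 3752 to 6832 (NRF rhythm) and 1477 to 4124 (DRF rhythm). Fewer mice enter these fits, and beyond that the cause was not tested.

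The replicate numbers share only a number: deviations of same-numbered libraries correlated at a mean r of 0.041 over 364 pairs (-0.66 to 0.56), against -0.012 between different numbers. With the replicate number as a block, no member's call changed (food 1.455 for Fgf21 and 0.7368 for Fgfr3, mean level 0.4749 for Klb), and the counts called in food over all genes went from 3288 to 3411 higher and from 3123 to 3236 lower.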
